A study of Mus musculus with 13 samples.

Results

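Mitochondrial fatty acid oxidation was examined through 9 genes that carry long-chain acyl groups into the mitochondrion and pass them through β-oxidation. The genes are Cpt1a, Slc25a20, Cpt2, Acadvl, Acadl, Acadm, Hadha, Hadhb and Etfdh. They were chosen by name, by their place in the pathway, from the 47937 genes of the count table, and all 9 passed the filter on low counts in every comparison. RNA came from thymocytes of C57BL/6 mice, taken at 6 weeks of age and freshly sorted into stages DN3 and DN4 of the double negative thymocytes, which carry neither CD4 nor CD8. DN3 cells rearrange the T cell receptor β locus, and cells that pass the β-selection checkpoint become DN4. Control mice were Wt;Lck-Cre+ (Wt), with Cre recombinase driven by the Lck promoter in developing T cells. The other mice were Opa1fl/fl;Lck-Cre+, with floxed alleles of Opa1, which encodes a protein of the inner mitochondrial membrane that shapes cristae. Both genotypes therefore carried the Lck-Cre transgene. The labels gave 3 Wt DN3, 4 Wt DN4, 3 KO DN3 and 3 KO DN4 libraries from 7 mice, and 6 of the mice (KO45, KO49, KO51, WT05, WT46 and WT48) gave both stages.

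Long-chain acyl-CoA cannot cross the inner mitochondrial membrane. CPT1 on the outer membrane exchanges CoA for carnitine, the carrier SLC25A20 brings the acylcarnitine across, and CPT2 restores the acyl-CoA inside. Each turn of β-oxidation then begins with an acyl-CoA dehydrogenase, which differs with chain length (ACADVL, ACADL, ACADM), and continues on the trifunctional protein of HADHA and HADHB, while electrons from the dehydrogenases pass through the electron transfer flavoprotein and its oxidoreductase ETFDH to ubiquinone. CPT1 is inhibited by malonyl-CoA, the first committed product of fatty acid synthesis, so uptake and synthesis oppose each other. T cells are known to differ in their use of this pathway, memory cells relying on it more than effector cells.

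The 2 genes of the trifunctional protein lie head to head on chromosome 5, Hadha on the minus strand at chr5:30118304-30155162 and Hadhb on the plus strand at chr5:30155248-30184593 in GRCm38. Their outermost annotated 5′ ends are 86 bases apart, and the interval between them, which lies in no annotated exon, is shown because the genes start on either side of it. It is given below from RefSeq, build GRCm38.p6, plus strand, at chr5:30155163-30155247. The next sequence is the 250 bases upstream of the RefSeq start of Cpt1a, whose product is the regulated step of the shuttle, from chr19:3323051-3323300 on the plus strand. The last is the same stretch for Acadl, from chr1:66863310-66863559 on the minus strand. Among the 9 genes Acadl had the lowest adjusted p between the stages in the KO libraries, in the fit without the mouse as a block. Capitals mark GC boxes (GGGGCGGGG on either strand) and a CCAAT box, and the interval and the Acadl stretch hold no match to either.
Hadha-Hadhb interval: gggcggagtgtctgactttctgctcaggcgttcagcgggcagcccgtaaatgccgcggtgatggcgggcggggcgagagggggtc
Cpt1a: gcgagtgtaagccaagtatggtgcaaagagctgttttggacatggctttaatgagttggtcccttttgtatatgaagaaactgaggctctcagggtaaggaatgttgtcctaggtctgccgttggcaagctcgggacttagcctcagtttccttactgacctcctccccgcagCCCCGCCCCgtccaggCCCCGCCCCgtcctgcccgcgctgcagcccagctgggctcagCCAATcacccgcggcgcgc
Acadl: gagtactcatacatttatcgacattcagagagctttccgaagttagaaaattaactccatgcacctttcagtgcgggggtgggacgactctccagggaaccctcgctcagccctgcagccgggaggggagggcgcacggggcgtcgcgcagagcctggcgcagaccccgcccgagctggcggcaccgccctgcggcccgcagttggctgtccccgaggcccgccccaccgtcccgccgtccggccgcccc

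In 32851 RefSeq mouse promoter windows of 300 bases, searched on both strands, a CCAAT box was found in 37.4%, and among the members in Cpt1a and Etfdh. The GC box was found in 11.45% of windows and in Cpt1a alone among the 9. An ETS element (CCGGAAG), bound by GABPA, was in 8.86% of windows and in Slc25a20 and Cpt2, which encode successive steps of the shuttle. The palindromic NRF1 element was in 4.60% of windows and in Etfdh. The nuclear receptor hexamer AGGTCA, which is also part of the next 2 motifs, was in 16.3% of windows and in Cpt1a, Acadvl and Acadm. Neither the ERR element TNAAGGTCA, in 1.28% of windows, nor the PPAR element, in which the hexamer is repeated after a spacer of any 1 base, in 0.0396%, was found in the window of a member. These are matches of letters in a short window and carry no measurement of binding.

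Libraries held 5926848 to 14148661 counts, with a median of 10023044. The Wt DN3 library of mouse WT05 stood apart, with 35.5% of its counts on ribosomal RNA-like genes against 0.395% to 1.58% in the other 12 libraries. Stage calls in Wt cells of the members and the listed fatty acid genes that change without it are therefore named, some with their values without it. Opa1 did not separate the genotypes, with a log2 difference between KO and Wt of -0.12 in DN3 (edgeR adjusted p = 1) and -0.08 in DN4 (adjusted p = 0.945). Counts over the whole gene cannot show whether the floxed exons were lost, so this value does not check the label, and the Opa1fl/fl;Lck-Cre+ libraries are called KO-labelled. The 8 DN3 markers summed to 3468 to 4810 CPM (counts scaled to a common library size) in the DN3 libraries and 858 to 2394 CPM in the DN4 libraries, and 5 of 8 passed as lower in DN4 in Wt and 6 of 8 in KO-labelled cells. Rag1, a recombinase gene of that list, was higher in DN4 in 2 of 6 mice, at 641 CPM in DN3 and 1590 CPM in DN4 of KO45. The 8 markers of DN4 cells and later stages, such as Cd4 and Cd8a, summed to 171 to 289 CPM in DN3 and 730 to 3608 CPM in DN4, the highest being KO45, with 2430 CPM the next highest (WT40), and all 8 passed as higher in DN4 in both genotypes. The DN4 libraries also held B-cell transcripts, all 7 of 7 listed markers (among them Cd79a, Ms4a1 and Pax5) being detected in each group. Their summed level was 23.8 to 56.7 CPM in DN3, 670 to 6537 CPM in Wt DN4 and 516 to 3907 CPM in KO-labelled DN4. Myeloid markers (7 listed) summed to at most 12.9 CPM, with Cd14 at 0 in 3 of 4 groups, and erythroid markers (5 listed) to at most 6.09 CPM. The 6 stromal markers summed to 112 to 245 CPM across both stages. In the libraries at these ends Pecam1 alone held 95.7 CPM (DN3 of WT05) and 236 CPM (DN4 of WT48), so the sum rests mostly on 1 gene. The thymic epithelial factor Foxn1 was at 0 throughout, and Krt5 and Krt8 were at 0 in Wt DN3.

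The first question was how much of each transcript the cells held. Levels between genes are given as CPM per kilobase of exon, since a longer transcript gives more reads. Over all 13 libraries the mean level per length was 49.3 for Acadl, 23.8 for Acadvl, 22.1 for Cpt1a and 16.9 for Hadha. It was lower for Hadhb at 13.7, Acadm at 11.5, Etfdh at 7.07, Slc25a20 at 6.20 and Cpt2 at 5.40. Acadl stood above Acadvl in 13 of 13 libraries and Hadha above Hadhb in 13 of 13. By exon union length the order of Acadvl and Cpt1a went with the stage, Acadvl standing above Cpt1a in 1 of 6 DN3 and 6 of 7 DN4 libraries. The mean level per length of Cpt1a was 25.2 in Wt and 26.2 in KO-labelled DN3, beside 20.1 and 22.5 for Acadvl, and in DN4 it was 18.8 and 19.3 beside 24.8 and 27.6. By the longest annotated transcript this switch was lost in Wt cells, Cpt1a having the higher mean in DN3 (44.6 and 24.9) and in DN4 (33.3 and 30.8), and in KO-labelled DN4 the means were 34.1 and 34.2. At the lower end, Slc25a20 stood above Etfdh in KO-labelled DN3 (7.03 and 6.74) and Cpt2 just above Slc25a20 in KO-labelled DN4 (5.77 and 5.75), and the other ranks were the same in all 4 groups. The first and last enzymes of the carnitine shuttle thus sat near opposite ends of the order, Cpt1a being higher per length than Cpt2 and the carrier Slc25a20.

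As TPM, in which levels are scaled for length and then to a common total, which keeps the order within a library, the Wt DN4 levels ran from 129 ± 13.8 for Acadl (SD, n = 4) to 17.9 ± 2.85 for Cpt2. In that group the ranges over mice overlapped between Acadvl and Cpt1a, Cpt1a and Hadha, and Slc25a20 and Cpt2, and not between the other neighbours. TPM levels were not compared in DN3, because the members' summed TPM was 63.3 in the Wt DN3 library of mouse WT05 against 515 and 622 in the other Wt DN3 libraries. With the longest annotated transcript in place of the exon union, Hadha moved from rank 4 to rank 2 in Wt DN4 and Acadvl from rank 2 to rank 4, while Acadl remained at rank 1 and Cpt2 at rank 9.

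**Figure D1:**
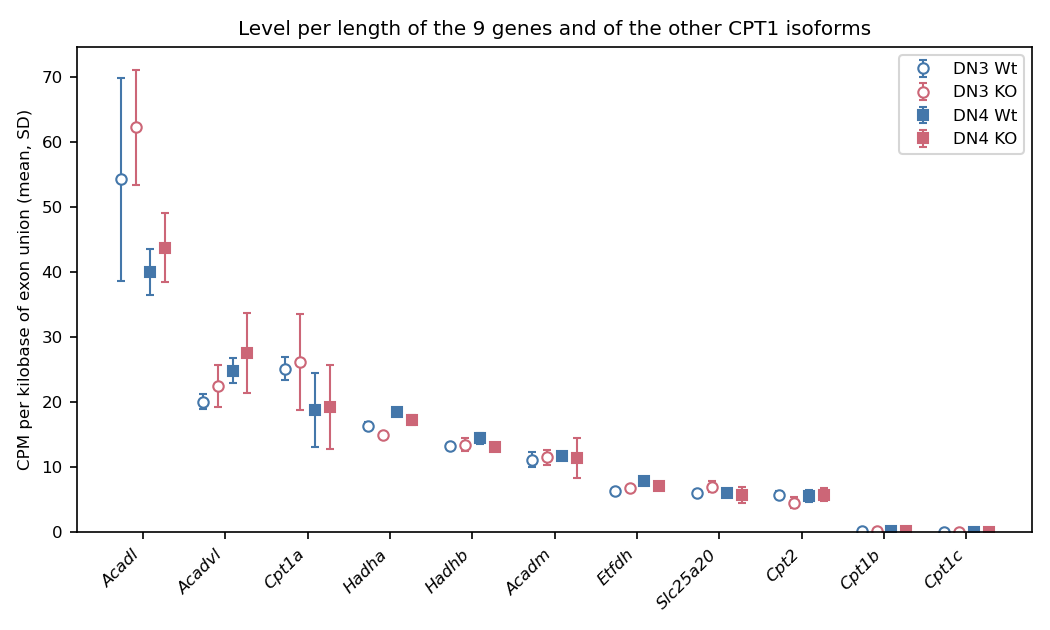
Level per length of each gene, in CPM per kilobase of exon union (vertical axis, mean and SD over mice), with open circles for DN3, filled squares for DN4, blue for Wt and red for KO-labelled libraries. Acadl is the highest in every group, and Cpt1b and Cpt1c lie close to 0.

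Of the 3 genes that encode CPT1, the liver-type isoform Cpt1a made up nearly all of the transcripts. Its share of the summed TPM of Cpt1a, Cpt1b and Cpt1c, a ratio within a library in which the common total cancels, was 99% ± 0.209 in Wt DN3 (n = 3), 98.3% ± 0.689 in Wt DN4 (n = 4), 99.4% ± 0.363 in KO-labelled DN3 (n = 3) and 98.7% ± 1.02 in KO-labelled DN4 (n = 3). Cpt1b, the muscle isoform, had 2 to 11 counts in a library and Cpt1c, the brain isoform, 0 to 8, and neither passed the filter in the stage comparisons, so their changes were not detectable at this depth. Exons of Cpt1b overlap those of Gm44502 on the same strand, and exons of Cpt1c those of 6530437J22Rik on the opposite strand. How reads of these overlaps were counted is not given in the sources used here, and they may alter the shares.

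Between the stages, most of the 9 transcripts showed no difference past the test. In Wt cells no member passed the test (0 of 9, against 22.9% of 12691 genes, 13.4% higher and 9.43% lower in DN4), and 3 of 9 had an unadjusted p under 0.05, namely Acadl, Acadvl and Etfdh, against 35.5% of all genes. In KO-labelled cells 1 of 9 passed, Acadl, lower in DN4, against 18.6% of 12580 genes, 11.2% higher and 7.34% lower. The median log2 difference of the 9 genes between DN4 and DN3 was 0.03 in Wt cells and -0.04 in KO-labelled cells, beside -0.03 and -0.02 over all genes tested. A lower level in such bulk samples can mean fewer cells that hold the transcript or less of it per cell, and these cannot be told apart. How many of all genes showed stages without overlap, or the same direction in each mouse, was not counted. Such patterns below therefore describe the members and hold no test.

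**Figure D2:**
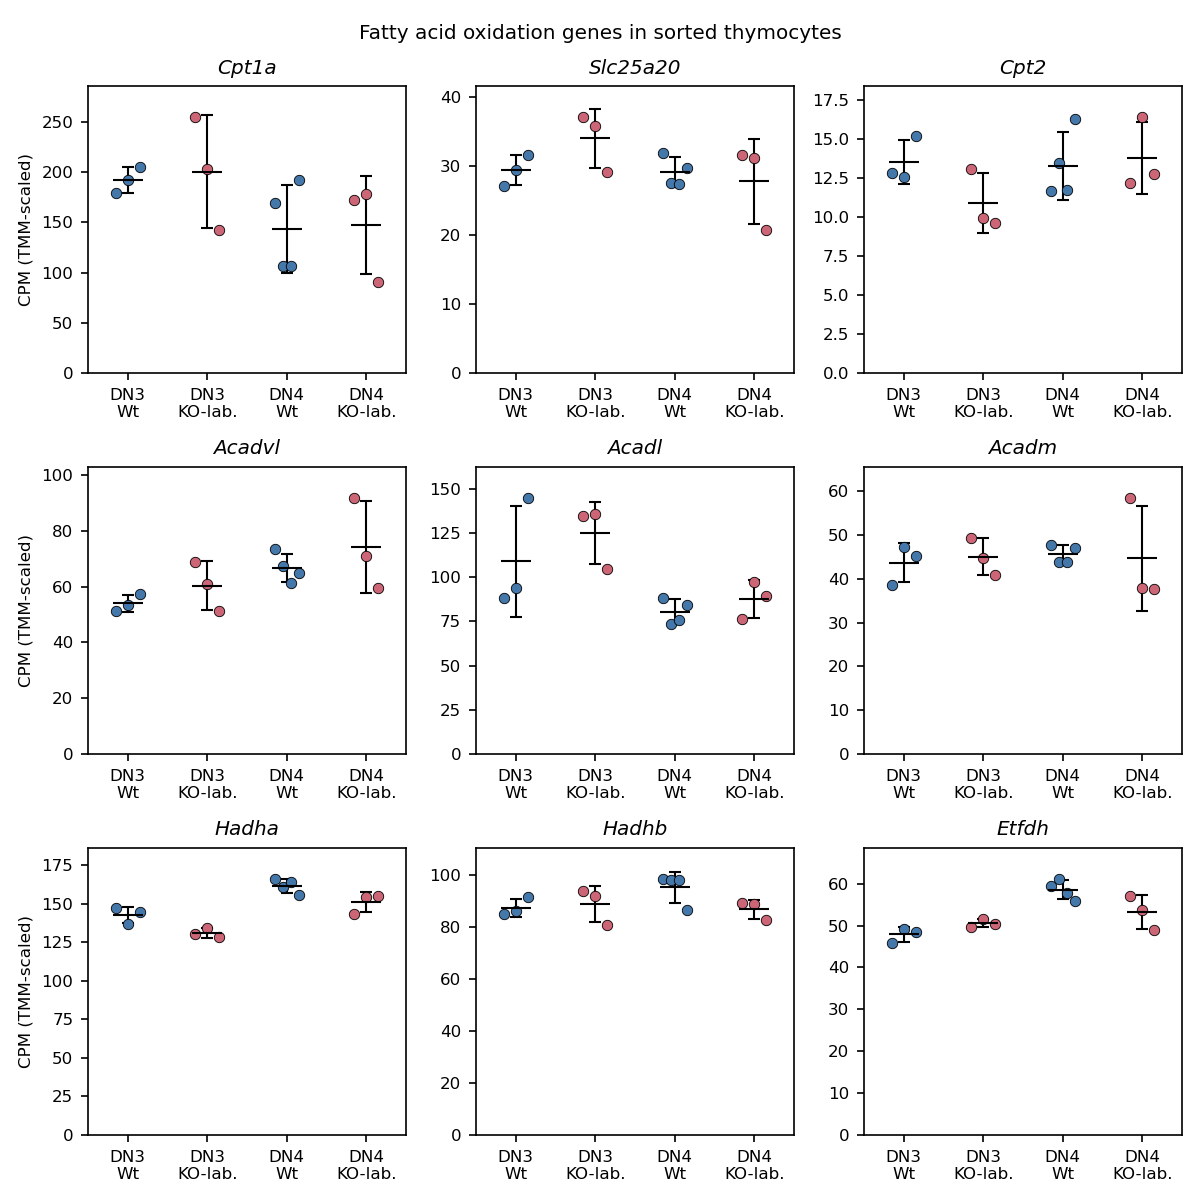
CPM on TMM-scaled library sizes (vertical axes, each from 0) of the 9 genes, with 1 point per library, horizontal bars for the group mean and whiskers for the SD (n = 3, and n = 4 in Wt DN4). Acadl falls from DN3 to DN4 in the KO-labelled libraries without overlap, and in Wt mice all DN4 points of Acadvl, Hadha and Etfdh lie above all DN3 points. The share of all genes without overlap was not counted.

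The carnitine shuttle begins with Cpt1a, the step at which malonyl-CoA acts. In Wt DN3 libraries Cpt1a was at 179 CPM in mouse WT05, 192 in WT46 and 206 in WT48. In Wt DN4 it was at 169 CPM in WT05, 107 in WT40, 107 in WT46 and 192 in WT48. In KO-labelled DN3 it was at 255 CPM in KO45, 203 in KO49 and 143 in KO51, and in DN4 at 172, 178 and 90.8 CPM in the same mice. The DN4 level was thus below the DN3 level in each of the 6 mice with both stages, by 0.08 (WT05) to 0.85 (WT46) on the log2 scale, while the ranges of the stages overlapped in both genotypes. Without regard to the mouse, the stage difference in Cpt1a did not pass, at a log2 difference of -0.45 in Wt (SE 0.222, edgeR adjusted p = 0.189) and -0.47 in KO-labelled cells (SE 0.293, adjusted p = 0.303). With the mouse as a block, which the design allows since both stages came from the same animals, Cpt1a fell by 0.49 in KO-labelled cells (SE 0.105, edgeR adjusted p = 0.00604). In that fit 3 of 9 members passed, Acadvl higher and Cpt1a and Acadl lower, against 35.8% of all genes, 18.9% higher and 16.9% lower. In Wt cells the block leaves out WT40, which gave DN4 only. The blocked difference over the other 3 mice was -0.37 (adjusted p = 0.248), beside -0.33 without WT40 and without the block (adjusted p = 0.349), with 0 of 9 members passing, against 18.7% of genes, 12.1% higher and 6.53% lower.

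The level of B-cell markers in the DN4 libraries moved with that of Cpt1a. The 3 DN4 libraries with the lowest summed markers, KO51 at 516 CPM, WT40 at 670 and WT46 at 888, were those with Cpt1a at 90.8, 107 and 107 CPM. The other 4, KO45 at 2243 CPM of markers, WT05 at 3243, KO49 at 3907 and WT48 at 6537, had Cpt1a at 172, 169, 178 and 192 CPM. With the summed markers as a covariate, the difference in Cpt1a was -0.93 in Wt cells (SE 0.151) and -1.16 in KO-labelled cells (SE 0.384), with edgeR adjusted p of 0.00582 and 0.184. The covariate was added after these values were seen, so neither p is a test of the pattern. The marker sums did not overlap between the stages, so every difference fitted with the covariate extrapolates beyond the levels the stages share. Whether B cells contributed to the Cpt1a reads was not tested.

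**Figure D3:**
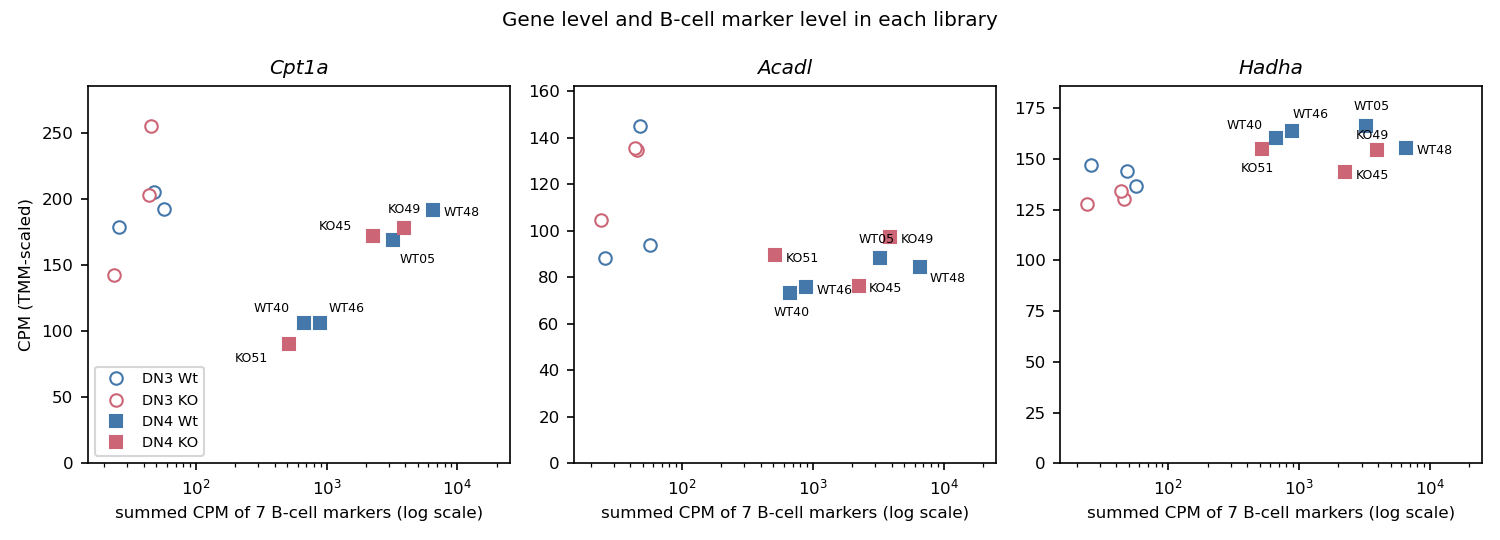
CPM of Cpt1a, Acadl and Hadha in each library (vertical axes, from 0) against the summed CPM of 7 B-cell markers (horizontal axis, log scale), with open circles for DN3, filled squares for DN4 (named by mouse), blue for Wt and red for KO-labelled libraries. The DN4 libraries of KO51, WT40 and WT46, at 516 to 888 CPM of markers, hold the lowest Cpt1a, while Hadha lies between 143 and 166 CPM in all DN4 libraries.

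The carrier Slc25a20 and the inner enzyme Cpt2 were expressed at lower levels and showed no stage difference past the test. Slc25a20 ranged from 27.2 to 31.6 CPM in Wt DN3 and from 27.4 to 32.0 CPM in Wt DN4, with a log2 difference of -0.04 (95% interval -0.32 to 0.24). In KO-labelled cells it was at 37.2, 35.8 and 29.1 CPM in DN3 and 31.6, 31.3 and 20.7 CPM in DN4 of mice KO45, KO49 and KO51, lower in DN4 in each mouse, with a blocked difference of -0.33 (adjusted p = 0.0604). Cpt2 ranged from 12.6 to 15.2 CPM in Wt DN3 and from 11.7 to 16.3 CPM in Wt DN4. Its log2 difference between the stages was -0.06 in Wt (95% interval -0.48 to 0.37) and 0.31 in KO-labelled cells (-0.21 to 0.83), and both a rise and a fall lay inside these intervals.

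Among the acyl-CoA dehydrogenases, the long-chain enzyme Acadl and the very long-chain enzyme Acadvl were called in opposite directions only in KO-labelled cells with the mouse as a block. Without the block Acadl alone passed there, and neither passed in Wt cells. Acadl, at chr1:66830839-66863277 on the minus strand, was at 135 CPM in KO45, 136 in KO49 and 104 in KO51 at DN3. At DN4 it was at 76.4, 97.4 and 89.4 CPM in the same mice. All KO-labelled DN4 values lay below all DN3 values, and Acadl fell by 0.53 on the log2 scale (SE 0.151, 95% interval -0.88 to -0.19, edgeR adjusted p = 0.0437). The call was lost with limma-voom (adjusted p = 0.0504), with all 13 libraries in one fit (adjusted p = 0.0645), with the B-cell markers as a covariate (-0.62, adjusted p = 0.282), and without the DN3 or the DN4 library of KO45 (adjusted p = 0.101 and 0.0818) or of KO49 (0.113 and 0.0525). It held with the mouse as a block (-0.53, adjusted p = 0.0083). KO45, the mouse with the largest fall in Acadl, was also the one with 3608 CPM of later-stage markers in DN4 beside 1309 and 1569 CPM in KO49 and KO51, and the part of this in the result was not tested.

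In Wt DN3 cells Acadl was at 88.1 CPM in WT05, 93.8 in WT46 and 145 in WT48, and in DN4 at 88.3 in WT05, 73.3 in WT40, 75.6 in WT46 and 84.3 in WT48. The DN3 library of WT48 stood far above the others, and within mice the log2 change was 0.00 in WT05, -0.31 in WT46 and -0.78 in WT48. The fitted Acadl difference was -0.47 (SE 0.178, edgeR adjusted p = 0.0957). It was -0.60 without the DN3 library of WT05 (adjusted p = 0.0383), the library rich in ribosomal RNA, and -0.21 without the DN3 library of WT48 (adjusted p = 0.325). Acadl was thus lower in DN4 in 5 of 6 mice, and the call in Wt cells depended on which DN3 library was kept.

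Acadvl was at 51.2, 53.4 and 57.4 CPM in the Wt DN3 libraries of WT05, WT46 and WT48. In Wt DN4 it was at 73.5, 67.3, 61.4 and 64.7 CPM in WT05, WT40, WT46 and WT48. The groups did not overlap, and the log2 difference was 0.28 (SE 0.106, 95% interval 0.04 to 0.52), which did not pass across all genes (edgeR adjusted p = 0.0956). In KO-labelled cells Acadvl was at 68.7, 60.9 and 51.4 CPM in DN3 and 91.8, 71.0 and 59.5 CPM in DN4 of KO45, KO49 and KO51. The DN4 level was above the DN3 level in each of the 6 mice, by 0.17 to 0.52 on the log2 scale, and with the mouse as a block Acadvl rose by 0.26 in KO-labelled cells (SE 0.09, adjusted p = 0.0487). Without the block the difference was 0.27 (adjusted p = 0.348). Exons of Acadvl overlap those of Dvl2 on the opposite strand, and the strand setting of the counting is not given in the sources used here, so reads of the overlap may belong to either gene.

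The medium-chain enzyme Acadm showed no difference past the test. Its levels were 38.6 to 47.3 CPM in Wt DN3 and 43.9 to 47.8 CPM in Wt DN4, and its log2 difference was 0.03 (95% interval -0.23 to 0.29). In KO-labelled cells 1 library was high, DN4 of KO45 at 58.5 CPM, beside 37.8 and 37.6 CPM in KO49 and KO51, and the log2 difference was -0.04 (-0.48 to 0.40). The interval in KO-labelled cells was wider than in Wt cells.

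The trifunctional protein carries out the later steps of long-chain β-oxidation with its α subunit (Hadha) and β subunit (Hadhb). Hadha was at 147, 137 and 144 CPM in Wt DN3 of WT05, WT46 and WT48 and at 166, 160, 164 and 155 CPM in Wt DN4 of WT05, WT40, WT46 and WT48. In KO-labelled cells Hadha was at 130, 134 and 128 CPM in DN3 and 143, 155 and 155 CPM in DN4 of KO45, KO49 and KO51. In both genotypes the stages did not overlap, and Hadha was higher in DN4 in 6 of 6 mice, by 0.11 to 0.28 on the log2 scale. The fitted differences were small, 0.15 in Wt (SE 0.0896, edgeR adjusted p = 0.257) and 0.18 in KO-labelled cells (SE 0.0966, adjusted p = 0.230), and did not pass. Exons of Hadha overlap those of Garem2 on the opposite strand.

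Hadhb, which starts across the interval from Hadha, was higher in DN4 in 3 of 6 mice. It was at 84.9 to 91.4 CPM in Wt DN3 and 86.4 to 98.5 CPM in Wt DN4, where 3 mice lay between 98.0 and 98.5 CPM and WT48 at 86.4 CPM. The log2 difference between the stages was 0.10 in Wt (95% interval -0.12 to 0.32) and -0.06 in KO-labelled cells (-0.31 to 0.19). The ratio of Hadha to Hadhb CPM was 1.63 ± 0.0854 in Wt DN3, 1.70 ± 0.0700 in Wt DN4, 1.48 ± 0.0978 in KO-labelled DN3 and 1.74 ± 0.133 in KO-labelled DN4. The ratios of KO-labelled cells at DN3 (1.39, 1.46 and 1.58) and DN4 (1.61, 1.74 and 1.87) did not overlap, whereas those of Wt cells did, and no test was run on them.

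Etfdh, through which the electrons of all these dehydrogenases reach ubiquinone, was at 45.9, 49.3 and 48.6 CPM in Wt DN3 of WT05, WT46 and WT48. In Wt DN4 it was at 59.5, 61.2, 57.8 and 55.9 CPM in WT05, WT40, WT46 and WT48. The Wt groups did not overlap, and the log2 difference was 0.26 (SE 0.097, 95% interval 0.04 to 0.48, edgeR adjusted p = 0.0867), which passed only when all 13 libraries were fitted together (0.29, adjusted p = 0.0298). In KO-labelled cells Etfdh was at 49.6, 51.6 and 50.4 CPM in DN3 and 57.1, 53.8 and 48.9 CPM in DN4 of KO45, KO49 and KO51. The difference there was 0.05 (95% interval -0.19 to 0.29). Exons of Etfdh overlap those of 4930579G24Rik on the opposite strand.

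The second question was whether the KO-labelled cells differed from Wt cells at the same stage. In DN3, 0 of 9 members passed, as did 0% of the 12105 genes tested with edgeR, of which 168 had an unadjusted p under 0.05, none of them a member, and DESeq2 called 3 genes. The intervals of the genotype difference in DN3 were widest for Cpt2 (-0.32, 95% interval -0.81 to 0.17), Acadl (0.19, -0.29 to 0.67) and Cpt1a (0.05, -0.42 to 0.52). They were narrower for Etfdh (0.07, -0.20 to 0.34), Hadha (-0.13, -0.40 to 0.13) and Hadhb (0.02, -0.27 to 0.30). Acadvl (0.15, -0.18 to 0.49), Slc25a20 (0.20, -0.15 to 0.55) and Acadm (0.03, -0.29 to 0.35) lay between. The KO-labelled Hadha values, 128 to 134 CPM, lay below the Wt values, 137 to 147 CPM, and with library totals in place of TMM scaling this difference changed sign to 0.12.

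In DN4, 0 of 9 members passed, against 0.0535% of 13084 genes (7 genes). The differences between KO-labelled and Wt cells were 0.07 for Cpt1a (95% interval -0.58 to 0.72), -0.03 for Slc25a20 (-0.40 to 0.34), 0.09 for Cpt2 (-0.30 to 0.48) and 0.19 for Acadvl (-0.16 to 0.54). They were 0.16 for Acadl (-0.08 to 0.40), 0.01 for Acadm (-0.39 to 0.40), -0.06 for Hadha (-0.25 to 0.12), -0.10 for Hadhb (-0.31 to 0.11) and -0.10 for Etfdh (-0.32 to 0.12). The interval was narrowest for Hadha and widest for Cpt1a, where changes of 0.5 in either direction lay inside it. A p that misses the threshold does not show that the genotypes express these genes alike.

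**Figure D4:**
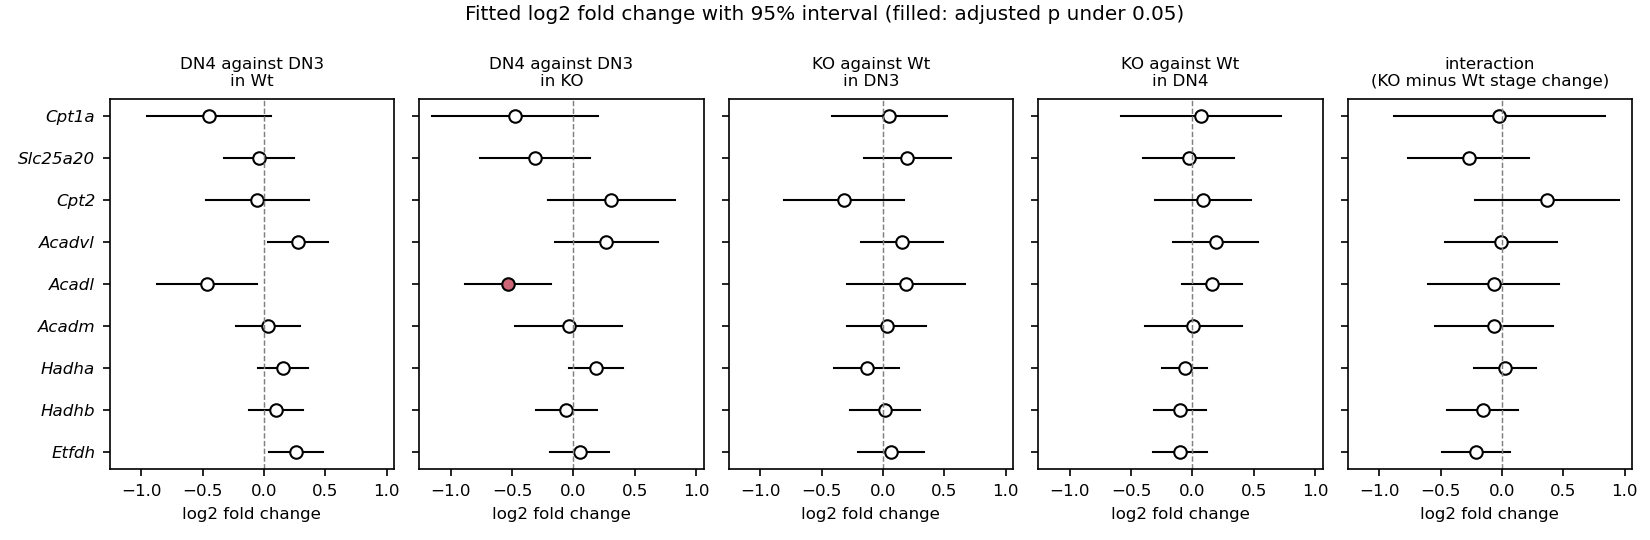
Fitted log2 fold change of the 9 genes (points) with 95% intervals (lines) in 5 comparisons, where KO stands for the KO-labelled libraries and filled points have an adjusted p under 0.05. Acadl between the stages in KO-labelled cells is the filled point, and the intervals of both genotype comparisons span 0 for every gene.

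Whether the stage difference itself differed between the genotypes was tested as an interaction over all 13 libraries. No member passed (0 of 9, and 0% of 13361 genes, of which 480 had an unadjusted p under 0.05 in edgeR and DESeq2 called 2), with interaction terms from -0.27 for Slc25a20 (95% interval -0.76 to 0.22) to 0.37 for Cpt2 (-0.22 to 0.95). For Acadl, called in KO-labelled and not in Wt cells, the interaction was -0.07 (-0.60 to 0.47, edgeR adjusted p = 1), so a difference between the genotypes in its stage change was not shown. For Etfdh it was -0.21 (-0.49 to 0.07).

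The genes around the pathway were examined in the same fits. Over 6 lists of fatty acid genes, 14 of 71 tested genes passed between the stages in Wt cells, 7 higher and 7 lower in DN4, and 8 of 71 in KO-labelled cells, 3 higher and 5 lower. These shares may be read beside 22.9% and 18.6% of all genes in the same fits. No gene of these lists passed in either genotype comparison or in the interaction. Without the DN3 library of WT05, 14 of 73 passed in Wt cells, 5 higher and 9 lower, against 25.7% of all genes. With the B-cell markers as a covariate 7 of 71 passed in Wt cells, against 15.7%, and 2 of 71 in KO-labelled cells, against 4.13%. With the mouse as a block, 10 of 70 passed in Wt cells, 5 higher and 5 lower, against 18.7% of all genes, and 21 of 71 in KO-labelled cells, 9 higher and 12 lower, against 35.8%. With library totals in place of TMM scaling 6 of 71 passed in Wt cells, 4 higher and 2 lower, against 14%. In the Wt fit with the block, which leaves out WT40, Crot (adjusted p = 0.175), Fasn (0.0627), Ppargc1b (0.0894) and Sirt5 (0.120) did not pass and Cd36 was not tested. The same held without WT40 and without the block (adjusted p = 0.110, 0.0720, 0.0766 and 0.105), and the part of the block in these losses was not tested. Fads1 passed with the block (-0.79, adjusted p = 0.0245) and not without WT40 alone (-0.74, adjusted p = 0.0709). Acox3 passed with it in both genotypes. In KO-labelled cells the block added Slc27a1, Acot7, Fabp5, Acadsb, Echs1, Fads1 and Scd2 as lower and Acox3, Acss2, Srebf1, Ppard, Nrf1 and Ncor1 as higher, with adjusted p from 0.00111 for Acox3 to 0.0491 for Ncor1, and it ended no call there. Without the DN3 library of WT05, Hadh (adjusted p = 0.0248), Pparg (0.0022) and Hnf4a (0.0372) passed as lower and Sirt1 (0.0463) as higher in Wt cells. Those of these genes that the rule on named genes did not cover were chosen after their values were seen.

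**Figure D5:**
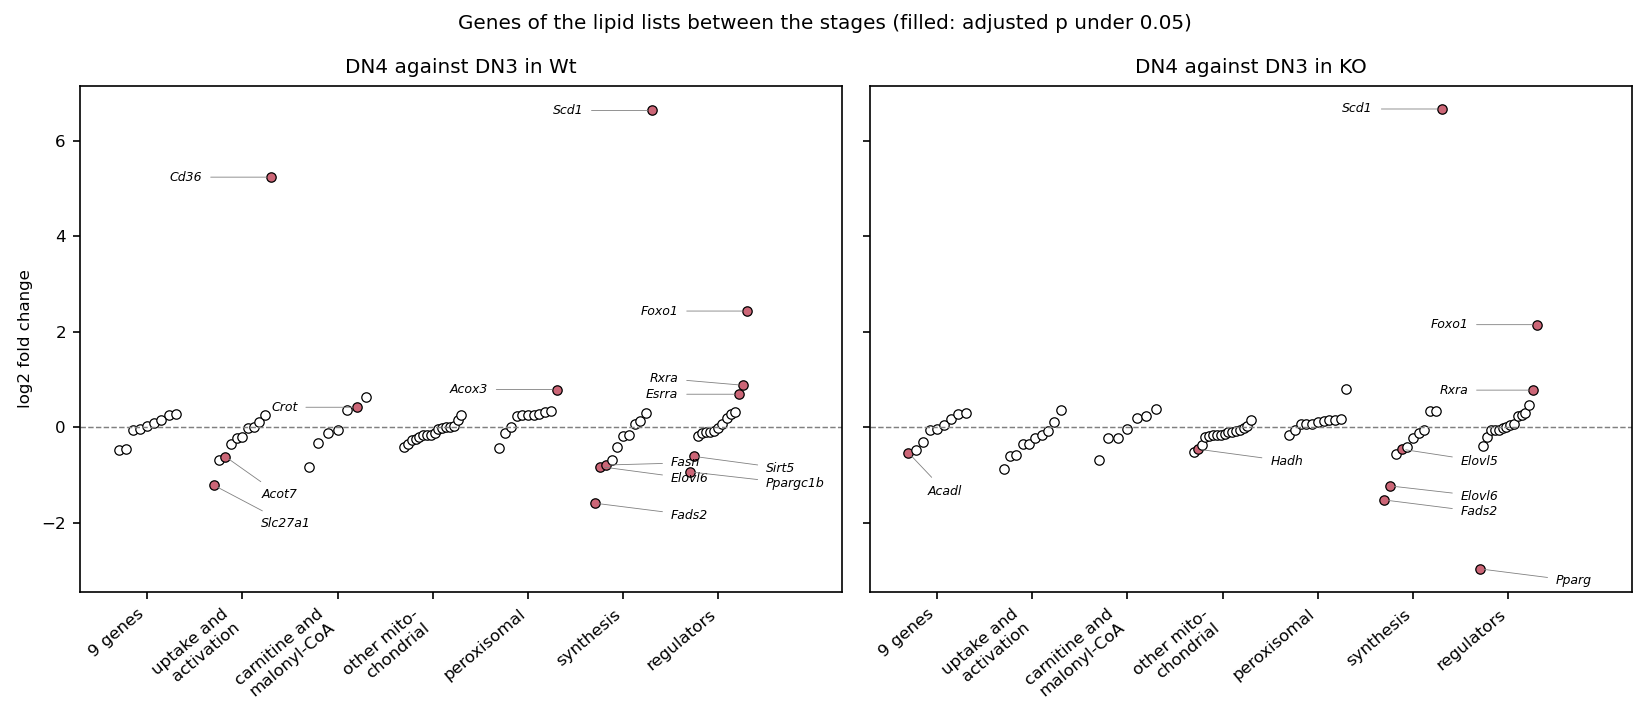
Log2 fold change between DN4 and DN3 (vertical axis) of the genes tested in each list, with Wt libraries on the left and KO-labelled libraries on the right, and filled, named points for an adjusted p under 0.05. The 9 genes lie nearer to 0 than Scd1 and Foxo1, which lie far above it in both genotypes, and Acadl is the filled point among the 9 in KO-labelled cells. The fitted value of Cd36 depends on the prior count, since its DN3 libraries held 0 or 1 count.

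Fatty acid synthesis, whose intermediate malonyl-CoA blocks CPT1, had 11 of 13 listed genes tested, and 1 was higher and 3 were lower in DN4 in each genotype. Over all genes the shares that passed were 22.9% in Wt and 18.6% in KO-labelled cells. Scd1, the Δ9 desaturase that makes oleate, was at 0.293 to 2.92 CPM in Wt DN3 and at 248, 52.0, 52.0 and 402 CPM in Wt DN4 of WT05, WT40, WT46 and WT48. In KO-labelled cells it was at 0.495 to 2.45 CPM in DN3 and at 137, 226 and 34.6 CPM in DN4 of KO45, KO49 and KO51. As for Cpt1a, the 3 lowest DN4 values belonged to the 3 libraries with the lowest summed B-cell markers. The log2 difference of Scd1 was 6.63 in Wt (SE 1.05, edgeR adjusted p = 0.00315) and 6.66 in KO-labelled cells (SE 0.837, adjusted p = 0.00179). Whether B cells contributed to the Scd1 reads was not tested.

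Some other genes of synthesis fell. Fads2, the Δ6 desaturase, was at 89.0, 124 and 123 CPM in Wt DN3 of WT05, WT46 and WT48 and at 29.1, 40.8, 50.2 and 31.8 CPM in Wt DN4 of WT05, WT40, WT46 and WT48, with no overlap. Fads2 fell by 1.59 on the log2 scale in Wt cells (SE 0.208, edgeR adjusted p = 0.00131) and by 1.52 in KO-labelled cells (SE 0.337, adjusted p = 0.0175). Its highest DN4 values, 52.9 CPM in KO51, 50.2 in WT46 and 40.8 in WT40, belonged to the libraries with the lowest summed B-cell markers. The other DN4 libraries held 17.9 to 31.8 CPM, and the part of B cells in this was not tested. The elongase Elovl6 fell by 0.82 in Wt cells (adjusted p = 0.00298) and by 1.23 in KO-labelled cells (adjusted p = 0.011). Fasn, the synthase that builds palmitate, fell by 0.79 in Wt cells (adjusted p = 0.0328). The DN3 library of WT05 held 710 CPM of Fasn beside 395 and 371 CPM in the other Wt DN3 libraries, and without it the fall was 0.44 (adjusted p = 0.0139). The elongase Elovl5, named after its values were seen, fell by 0.46 in KO-labelled cells (adjusted p = 0.0349) and was at -0.16 in Wt cells (adjusted p = 0.353).

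Of 14 genes of uptake and activation, 11 were tested in Wt cells, and 1 was higher and 2 were lower in DN4, against 22.9% of all genes. The fatty acid transporter Slc27a1 fell by 1.21 (SE 0.182, edgeR adjusted p = 0.00242), from 67.3 to 107 CPM in DN3 to 32.1 to 46.1 CPM in DN4. The thioesterase Acot7, which cleaves acyl-CoA, fell by 0.61 (SE 0.119, adjusted p = 0.0077). In KO-labelled cells 0 of 10 passed, against 18.6% of all genes, and the differences were -0.60 for Slc27a1 (adjusted p = 0.110) and -0.58 for Acot7 (adjusted p = 0.123). With the mouse as a block both fell there too, Slc27a1 by 0.57 (adjusted p = 0.00491) and Acot7 by 0.62 (adjusted p = 0.00322). The fatty acid-binding protein Fabp5 was at -0.36 in Wt cells (adjusted p = 0.101), and in KO-labelled cells at -0.35 without the block (adjusted p = 0.419) and -0.40 with it (adjusted p = 0.0242). Cd36, a scavenger receptor that takes up fatty acids, had 0, 0 and 1 counts in Wt DN3 and 39, 15, 4 and 33 counts in Wt DN4 of WT05, WT40, WT46 and WT48, and its higher level in DN4 passed (adjusted p = 0.0189). It did not pass with the B-cell markers as a covariate (adjusted p = 0.0769) or with limma-voom (adjusted p = 0.072), and in KO-labelled cells, with 0 counts in each DN3 library and 10, 49 and 0 counts in DN4 of KO45, KO49 and KO51, it did not pass the filter on low counts. It passed there as higher in DN4 with all 13 libraries in one fit (adjusted p = 0.0424) and with no filter beyond 1 count (adjusted p = 0.0113).

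Carnitine supply and malonyl-CoA control had 7 of 10 genes tested, of which 1 passed in Wt cells and 0 in KO-labelled cells. Over all genes 22.9% passed in Wt and 18.6% in KO-labelled cells, which also stands beside the peroxisomal counts below. Crot, the peroxisomal carnitine octanoyltransferase, rose by 0.42 in Wt cells (SE 0.127, edgeR adjusted p = 0.0462). Acaca, which makes malonyl-CoA, was at -0.83 in Wt cells (adjusted p = 0.0801), with its DN3 library of WT05 at 207 CPM beside 94.2 and 83.5, and at -0.32 without that library (adjusted p = 0.149). Mlycd, which degrades malonyl-CoA, was at 0.63 (adjusted p = 0.0656), and the carnitine transporter Slc22a5 at -0.33 (adjusted p = 0.0872). In peroxisomal β-oxidation 1 of 11 tested genes passed in Wt cells and 0 in KO-labelled cells. The oxidase Acox3 rose by 0.79 in Wt cells (SE 0.238, adjusted p = 0.045) and was at 0.80 in KO-labelled cells (adjusted p = 0.0742). Its 3 lowest DN4 values, 56.0, 59.4 and 61.3 CPM in WT46, KO51 and WT40, belonged to the 3 libraries with the lowest summed B-cell markers, and the other 4 held 74.1 to 107 CPM. With the markers as a covariate Acox3 did not pass in Wt cells (0.32, adjusted p = 0.259), and the part of B cells in its reads was not tested. The transporter Abcd3, Scp2 and the thiolase Acaa1a were at 0.28, 0.33 and 0.24 in Wt cells and did not pass.

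The other mitochondrial enzymes of β-oxidation were all tested, 16 of 16, and 0 passed in Wt cells, against 22.9% of all genes. In KO-labelled cells Hadh, the hydroxyacyl-CoA dehydrogenase for shorter chains, fell by 0.46 (SE 0.115, edgeR adjusted p = 0.0286), and the other 15 did not pass, against 18.6% of all genes that did. The Hadh call was lost with the B-cell markers as a covariate (-0.47, adjusted p = 0.311) and with all 13 libraries in one fit (-0.44, adjusted p = 0.0568). In Wt cells Hadh was at -0.24 (adjusted p = 0.326), and without the DN3 library of WT05, at 47.7 CPM beside 72.6 and 73.9, it fell by 0.42 (adjusted p = 0.0248). The dehydrogenase Acad11 was at -0.41 in Wt cells (adjusted p = 0.0642), the hydratase Echs1 at -0.20 and Etfb, a subunit of the electron transfer flavoprotein, at -0.34. In KO-labelled cells Echs1 was at -0.37 (adjusted p = 0.0826), and it passed with the block (-0.38, adjusted p = 0.0353). The median log2 difference of the 16 was -0.13 in Wt and -0.15 in KO-labelled cells, with 11 and 14 of them below 0, beside medians of -0.03 and -0.02 over all genes, of which 52.7% and 52.5% were below 0.

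Of 20 regulators of fatty acid oxidation, 15 were tested in Wt cells, where 3 rose and 2 fell, and 16 in KO-labelled cells, where 2 rose and 1 fell. Beside these counts, 22.9% of all genes passed in Wt and 18.6% in KO-labelled cells. Foxo1, a transcription factor restrained by insulin and growth factor signals, was at 22.1 to 34.5 CPM in Wt DN3 and 107 to 178 CPM in Wt DN4. Foxo1 rose by 2.43 in Wt cells (SE 0.252, edgeR adjusted p = 0.000417) and by 2.15 in KO-labelled cells (SE 0.188, adjusted p = 0.000546). Rxra, whose product pairs with the PPAR receptors, rose by 0.88 in Wt and by 0.78 in KO-labelled cells (adjusted p = 0.00879 and 0.0235). The coactivator Ppargc1b fell by 0.93 in Wt cells (adjusted p = 0.0353), with its DN3 library of WT05 at 27.8 CPM beside 13.3 and 16.7, and the difference was -0.60 without that library (adjusted p = 0.0595). The deacylase Sirt5 fell by 0.61 in Wt cells (adjusted p = 0.042). Esrra, which encodes the receptor ERRα, and Pparg were named after their values were seen. Esrra rose by 0.69 in Wt cells (adjusted p = 0.0498). Pparg, the PPARγ receptor, fell by 2.96 in KO-labelled cells (adjusted p = 0.00742), with 45, 12 and 39 counts in DN3 and 7, 3 and 5 counts in DN4 of KO45, KO49 and KO51. In Wt cells Pparg did not pass the filter on low counts, with 2, 31 and 21 counts in DN3 of WT05, WT46 and WT48 and 1 to 3 counts in each DN4 library. It was tested in Wt cells without the DN3 library of WT05 and fell by 3.77 (adjusted p = 0.0022), and with all 13 libraries in one fit by 3.4 (adjusted p = 0.0011). Pparg was lower in DN4 in 6 of 6 mice.

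Some of these calls rested on single libraries. In Wt cells Scd1, Fads2, Elovl6, Foxo1, Rxra, Slc27a1 and Acot7 passed whichever library was left out, as did Scd1, Elovl6, Foxo1 and Pparg in KO-labelled cells. Other settings ended some of these, as Scd1 did not pass in Wt cells with limma-voom (adjusted p = 0.0811), nor Elovl6 (0.127) and Acot7 (0.387) with library totals. With the B-cell markers as a covariate Scd1 and Foxo1 kept their calls in KO-labelled cells, and Elovl6 (adjusted p = 0.225), Pparg (0.284), Fads2 (0.313), Elovl5 (0.384) and Rxra (0.343) lost theirs, as did Hadh. In Wt cells the covariate ended the calls of Acox3, Crot (adjusted p = 0.110), Fasn (0.146), Esrra (0.285), Ppargc1b (0.182), Sirt5 (0.143) and Cd36, and the 7 others kept theirs. With it the calls over all genes went from 2338 to 519 in KO-labelled and from 2903 to 1998 in Wt cells. Since the marker sums did not overlap between the stages, a kept or lost call is no test of the part of B cells. Crot passed only without the DN4 library of WT48 (adjusted p up to 0.119), Sirt5 only without the DN3 library of WT05 (up to 0.157), and Esrra under no omission (0.0559 to 0.115). Acox3 did not pass without any 1 of the DN3 libraries or the DN4 libraries of WT05 and WT48 (adjusted p up to 0.0992), and Ppargc1b not without DN3 of WT05 or WT48 or DN4 of WT05, WT40 or WT48 (up to 0.102). Fasn lost its call without any 1 of the 4 DN4 libraries (up to 0.0875). Cd36 was tested in only 4 of the 7 omissions, and of those it lost its call without DN3 of WT46 or WT48 (up to 0.0788). In KO-labelled cells Fads2 lost its call without DN3 of KO49 or KO51 (up to 0.0524). Hadh and Rxra each lost it without DN3 of KO49 or KO51 or DN4 of KO45 or KO49 (up to 0.0857 and 0.086), and Elovl5 without any library but DN4 of KO51 (up to 0.0928).

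The genes whose 4 group means were most like those of Cpt1a, by root mean square distance of centred log2 CPM over 13361 genes, were Hibadh (0.00872), Dna2 (0.0137), Tef (0.0148), Mrto4 (0.0154) and 6430511E19Rik (0.0158). The nearest member to Cpt1a was Acadl, at 0.0803, with 521 genes nearer. The closest members to one another were Acadm and Hadhb, at 0.0301, with 148 genes nearer to Acadm and 113 nearer to Hadhb. With only 4 group means per gene, such distances describe these groups and hold no test.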

How the data were processed

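RNA of freshly sorted DN3 and DN4 thymocytes was sequenced as 13 libraries, made by the authors with a stranded mRNA kit. According to the methods and the submitters' processing notes, the authors trimmed reads with Cutadapt, aligned them with STAR to mm10, checked quality with deepTools and counted reads per gene with featureCounts, and their deposited table holds whole-number counts with no normalization. Tool versions and the strand setting of the counting are not given in the sources used here. All sample columns were used (0 left out), and rows were named by Ensembl identifier without version through GENCODE M21 on GRCm38, which matched 47310 of 47937 genes (39106 with the version).

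Counts were scaled by TMM, filtered with filterByExpr (minimum count 10) and tested in R 4.3.3 with edgeR 4.0.16 (glmQLFTest, quasi-likelihood, 2-sided), with Benjamini-Hochberg adjustment over all genes and a threshold of 0.05. Every adjusted p is from edgeR unless another tool is named, and intervals (95%) are from the same fits. Stages were compared within each genotype and genotypes within each stage, each on its own libraries, and the interaction over all 13. CPM use these scaled library sizes, and TPM are counts per exon union length, scaled to the same total in each library without TMM. The 9 members and the gene and marker lists were chosen with earlier results of these data known. A marker of the B-cell list that counts in its sum is not reported here by itself. Genes named beside them were Opa1, the other CPT1 isoforms, up to 4 genes per list with the smallest p between the stages in Wt, any listed gene called between genotypes, and the 5 genes nearest to Cpt1a. Library totals are sequencing depth (5926848 to 14148661 counts), and replicates are separate mice. Counts of libraries within a group differed by more than sampling noise (chi-squared per degree of freedom at least 5.85), so none was counted as a repeat.

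Alternatives were DESeq2 1.42.0 and its size factors, limma-voom (limma 3.58.1), library totals, 2 other count filters, removal of ribosomal RNA-like genes, a fit of all 13 libraries, the mouse as a block (without WT40, which gave DN4 only), each library left out, and the longest transcript as length. The B-cell marker covariate and CPM per kilobase were added after seeing the data. Mouse numbers pair the stages because the labels give DN3 and DN4 libraries of the same mouse, whose deviations from the group means correlated at 0.123 to 0.495 over 13361 genes. In simulated counts with 200 genes changed 4-fold, the test recovered 80.5% of them between the stages in Wt (12691 genes), 87% between the stages in KO-labelled libraries (12580), 90.5% between genotypes in DN3 (12105) and 89% in DN4 (13084), with 3.72% to 9.38% of calls false. The fitted differences of the members were far smaller than 4-fold, so these shares do not tell how often differences of that size are found.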

Additional observations from a re-analysis of the deposited data

Results flagged for a closer look

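In the 4 Wt DN4 libraries, Hadhb of mouse WT48 stood apart at 86.4 CPM, with the other 3 mice between 98.0 and 98.5 CPM, so that its gap to the nearest was 0.954 of the whole range. The carnitine transporter Slc22a5 was high in WT46 at 27.1 CPM, beside 24.7 to 25.1 CPM in the other mice. Rxra was low in WT46 at 14.8 CPM, with the other 3 between 17.95 and 18.4 CPM. Among 34 genes examined in this group 3 were marked in this way by Dixon's criterion, and chance marks about 1 in 20.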

How the results depend on the processing

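Calls between the stages changed with the scaling, the block and the marker covariate. In Wt cells 1782 genes passed with library totals, where 77.8% of them were higher in DN4 beside 58.8% with TMM, and the median of all genes moved from -0.03 to 0.16. Of the members, 1 passed in Wt cells with all 13 libraries in one fit (Etfdh, against 26.6% of all genes) and 1 with the marker covariate, which is no test, since the covariate was added for that gene (Cpt1a). In KO-labelled cells 4499 genes and 3 members passed with the mouse as a replicate block, 519 genes and 0 members with the covariate, and 0 members with limma-voom or all 13 libraries. The block, which leaves out the Wt mouse with DN4 only, changed no other call of a member. Between genotypes in DN3, 1 gene passed without a filter beyond 1 count and 3 with DESeq2. In DN4 the counts were 11, 51 and, with the covariate, 19, and for the interaction DESeq2 called 2. No paired analysis was possible because no mouse gave both genotypes, for the comparisons of genotype within a stage. The cause of these changes was not tested.

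The sign of some differences turned. In Wt cells library totals gave 0.12 for Slc25a20, 0.11 for Cpt2, 0.054 for Opa1 and 0.053 for Elovl5, and the covariate -0.027 for Acadm. In KO-labelled cells the covariate gave -0.041 for Etfdh, 0.017 for Slc22a5 and 0.042 for Ppargc1b. Between genotypes in DN3 library totals, which moved the median of all genes from -0.0053 to 0.23, gave 0.12 for Hadha and 0.16 for Opa1. In DN4 Acadm was at -0.0096 with DESeq2 size factors, -0.018 without ribosomal RNA-like genes, -0.015 without a filter, -0.0093 with DESeq2, -0.024 with limma-voom and -0.031 with all 13 libraries. For the interaction, Cpt1a was at 0.0029 with limma-voom and 0.091 with the covariate, Acadvl at 0.0038 with the covariate, Hadha at -0.17 with library totals and Opa1 at 0.016 with the replicate block.

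With each library left out in turn, 1845 (without DN4 of WT05) to 3393 genes and 0 to 1 members passed between the stages in Wt cells, and 1877 and 1918 genes without DN3 of WT46 or WT48. In KO-labelled cells 1407 (without DN3 of KO49) to 2790 genes and 0 to 1 members passed, with 1458 without DN3 of KO51 and 1522 without DN4 of KO49. Between genotypes 0 to 1 genes passed in DN3 and 0 to 8 in DN4. Differences that crossed 0 were, between the stages in Wt, Slc25a20 (-0.099 to 0.013), Cpt2 (-0.17 to 0.039) and Acadm (-0.054 to 0.095). In KO-labelled cells they were Acadm (-0.31 to 0.069), Etfdh (-0.030 to 0.096), Crot (-0.094 to 0.42), Scp2 (-0.0056 to 0.14) and Slc22a5 (-0.12 to 0.027). Between genotypes in DN3 they were Cpt1a (-0.16 to 0.25), Acadm (-0.047 to 0.098) and Hadhb (-0.026 to 0.083), and in DN4 Cpt1a (-0.074 to 0.34), Slc25a20 (-0.15 to 0.15), Cpt2 (-0.040 to 0.19), Acadvl (-0.012 to 0.33) and Acadm (-0.25 to 0.13). For the interaction they were Cpt1a (-0.22 to 0.23), Acadvl (-0.19 to 0.13), Acadl (-0.33 to 0.077), Acadm (-0.31 to 0.040) and Opa1 (-0.085 to 0.045). Each member had at least 44 counts in each library, the lowest being Cpt2 in DN3 of WT05. With 3 or 4 mice in a group, the intervals of the log2 differences between genotypes ran from 0.37 (Hadha, DN4) to 1.3 (Cpt1a, DN4) in width.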
